A study of Arabidopsis thaliana with 2 samples.

Results

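The ethylene response factors ERF3, ERF4 and ERF7 to ERF12 form the branch of group VIII of the ERF transcription factor family that carries the EAR motif (ERF-associated amphiphilic repression), a short repression sequence. They were taken by gene identifier, and all 8 were among the 27416 genes of the deposited table. Messenger RNA was sequenced from whole wild-type Arabidopsis thaliana seedlings of strain Columbia, 10 days after germination. Seedlings were given flg22, a flagellin peptide, at 1 µmol/L for 4 h, or were controls without flg22. The sample labels used here give no treatment time for the control. For each group 3 biological replicates were pooled and sequenced as 1 library, so no difference below has a replicate check and no test between conditions could be made.

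ERF proteins bind GCC-box DNA through a single AP2/ERF domain, and most groups of the family activate transcription. Those with an EAR motif instead recruit TOPLESS-type corepressors or the SIN3 and SAP18 complex, which bring histone deacetylases to the target gene. In Arabidopsis these repressors are known for damping ethylene, jasmonate and abscisic acid responses. ERF4 lowers jasmonate- and ethylene-responsive defence gene expression, ERF7 acts in abscisic acid responses together with SIN3 and HDA19, and ERF9 is a negative regulator of defence against necrotrophic fungi. ERF8 has been linked to leaf senescence and immunity, ERF11 represses ethylene synthesis genes, and ERF12 works with TOPLESS-type proteins in flowers and seeds.

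The repression motif is shown as the coding DNA of each gene, because it is the sequence feature that defines these genes as repressors. The coding sequences were searched in frame for codons of aspartate, leucine and asparagine, followed by any 2 codons and a proline codon. All 8 genes held such a stretch near the end of the coding sequence, its first codon lying between 6 and 27 codons from the last, counting both. ERF12 also held another one at codon 74 of its 189. The capitals mark the codons of aspartate, leucine, asparagine and proline, and the positions are those of RefSeq assembly TAIR10.1.
ERF3, chr1:18757665-18757682, minus strand: GATCTTAATtttccaCCG
ERF7, chr3:7086023-7086040, minus strand: GATCTTAATttcccgCCG
ERF4, chr3:5122105-5122122, plus strand: GATCTTAATttgcctCCT
ERF8, chr1:19821551-19821568, minus strand: GATCTTAACttagctCCT
ERF11, chr1:9956366-9956383, minus strand: GATCTTAATttccctCCT
ERF9, chr5:17807309-17807326, plus strand: GATCTTAACctagctCCA
ERF10, chr1:957264-957281, minus strand: GACCTCAACgcaagtCCC
ERF12, chr1:9952471-9952488, plus strand: GACCTCAACgagcctCCG

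The first 9 bases had 3 forms, one in ERF3, ERF7, ERF4 and ERF11, one in ERF8 and ERF9, and one in ERF10 and ERF12. In the RefSeq annotation, the transcript with the longest coding sequence was a single exon without an intron for each of the 8 genes. No other annotated gene overlapped any of them. ERF11 had 2 annotated transcripts, and the other one was not examined for introns. ERF3 and ERF7 were the closest pair, with 74.1% identity over the aligned coding sequences, and ERF4 and ERF8 came next at 61.7%. Over all 28 pairs the median coding identity was 49.4%, and the longest identical run between any 2 of the transcripts used was 28 bases, between ERF3 and ERF7. ERF11 and ERF12 lie next to each other on chromosome 1 in tail-to-tail orientation, 2668 bases apart, yet shared only 43.7% of their coding sequence.

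Gene counts came to 24621440 reads in the flg22 library and 21414567 in the control library. FRK1, a receptor-like kinase gene induced by flg22, was at 85.7 RPKM with flg22 and 1.01 RPKM in the control. RPKM is the authors' value, reads scaled for the listed gene length and for the library total. Reads of shoot and root marker genes were present in both libraries. The shoot markers RBCS1A, CAB1 and CA1, genes of photosynthesis and carbonic anhydrase, were at 1234, 2459.8 and 64.5 RPKM with flg22, against 2713, 9714 and 255 RPKM in the control. The root markers COBL9, EXPA7, CASP1 and PHO1 lay between 1.91 and 17.8 RPKM with flg22 and between 1.90 and 24.3 RPKM in the control. All 3 shoot markers were thus lower with flg22 by 2.199- to 3.95-fold on reads per library total. The root markers lay within 2-fold on the log2 scale used below, but did not go one way. On reads, EXPA7 was 2.03-fold higher with flg22 and COBL9 was at a fold of 1.00. CASP1 and PHO1 were at folds of 0.661 and 0.733. The part of these marker differences in the results was not tested, and fewer cells of a type cannot be told apart from less RNA per cell in whole seedlings.

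ERF11 and ERF4 were higher with flg22, and the other 6 repressor genes lay within 2-fold. The log2 ratio used for these counts is of RPKM after adding 1 RPKM to both values, and all 8 genes reached the filter of an average of 1 RPKM or more across the 2 libraries. With 2 of 8 members at least 2-fold higher, the members stood beside 11.3% of the 18724 genes past that filter. None of the 8 was at least 2-fold lower, beside 8.27% of those genes. The median log2 ratio was 0.27 over the members and -0.03 over the 18724 genes.

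ERF11 (AT1G28370), the repressor of ethylene synthesis genes, had the largest ratio of the 8. It was counted at 405 reads with flg22 and 49 reads in the control, which is 16.9 RPKM with flg22 and 2.36 RPKM in the control. The fold, taken on reads per library total with nothing added, was 7.19 with a 95% interval of 5.34 to 9.88. This interval, like the others below, is the exact conditional binomial one and reflects the error of counting reads, not the variation between seedlings. The log2 ratio of ERF11 was 2.42, and 2.80% of the 18724 genes had a higher one. ERF11 was the 1 member at least 4-fold higher on the log2 scale, beside 4.17% of all genes past the filter. With flg22, 31.0% of those genes stood above ERF11 in RPKM, against 86.8% in the control. Such ranks by RPKM, also that of ERF4, depend on the listed gene lengths, which are treated with ERF10 below.

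ERF4 (AT3G15210), which lowers jasmonate- and ethylene-responsive defence gene expression, was counted at 2183 reads with flg22 and 598 reads in the control. This corresponded to 77.8 RPKM with flg22 and 24.5 RPKM in the control. The fold was 3.18 (95% interval 2.90 to 3.48) and the log2 ratio 1.63, which 6.11% of the 18724 genes exceeded. With flg22, 6.38% of those genes stood above ERF4 in RPKM, against 19.9% in the control. ERF4 therefore gained more in RPKM than ERF11, from a higher control level, while ERF11 gained more in fold.

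ERF3 (AT1G50640) and ERF7 (AT3G20310), the closest pair in sequence, both differed little between the libraries. ERF3 was at 44.4 RPKM with flg22 and 35.4 RPKM in the control, from 1406 reads with flg22 and 975 in the control, and its fold was 1.25 (1.16 to 1.36). ERF7, the abscisic acid response repressor, was at 23.4 RPKM with flg22 and 20.3 RPKM in the control, from 1154 reads with flg22 and 870 in the control. Its fold was 1.15 (1.06 to 1.26). Both intervals lay above 1 and overlapped each other. These 2 genes were well covered, so counting error does not hide a 2-fold difference in either.

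ERF8 (AT1G53170) and ERF9 (AT5G44210) were the 2 members with ratios below 1. ERF8 was at 7.24 RPKM with flg22 and 8.57 RPKM in the control, from 163 reads with flg22 and 168 in the control, with a fold of 0.844 (0.676 to 1.05). ERF9, the negative regulator of defence against fungi, was at 8.11 RPKM with flg22 and 9.76 RPKM in the control. These levels came from 212 reads with flg22 and 222 in the control, and the fold was 0.831 (0.685 to 1.01). Both intervals included 1, so no difference was detectable for either gene at this depth.

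ERF10 (AT1G03800) and ERF12 (AT1G28360) were the least abundant members. ERF10 was at 1.49 RPKM with flg22 and 1.08 RPKM in the control, from only 27 reads with flg22 and 17 in the control, and its fold was 1.38 (0.726 to 2.70). ERF12 was at 2.19 RPKM with flg22 and 1.62 RPKM in the control, from 48 reads with flg22 and 31 in the control, and its fold was 1.35 (0.840 to 2.19). Both intervals reached past 2-fold, so the counts neither show nor exclude a difference of that size for these 2 genes. The gene lengths listed by the authors, on which RPKM rests, matched the RefSeq transcript span to within 1 base for 2 members, ERF4 and ERF8, and were shorter for the other 6. Of the 26710 genes with an annotated transcript, 29.7% had a listed length 1 base less than an annotated span, as these 2 had. The mismatch was thus common in all genes and not a trait of the members. The gap was widest for ERF10, listed at 737 bases against a span of 1280 bases, and for ERF12 and ERF3 the span was 1.51 and 1.35 times the listed length. Levels compared between members depend on these lengths, while each gene's own fold on reads does not. The filter, the log2 ratio and the ranks by RPKM rest on these lengths too. A span from start to end includes any introns, and where a listed length does so, RPKM is lowered. The members, single exons in the transcripts used, could then rank higher among all genes than they would on exon lengths. How often this applies was not tested. With the span as length and the same reads, ERF10 was at 0.857 RPKM with flg22 and 0.620 RPKM in the control, below the filter. The coding sequence of ERF10 is 738 bases long, near its listed length. Reads were not recounted over the span, so whether ERF10 would reach the filter on that model was not tested.

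**Figure D1:**
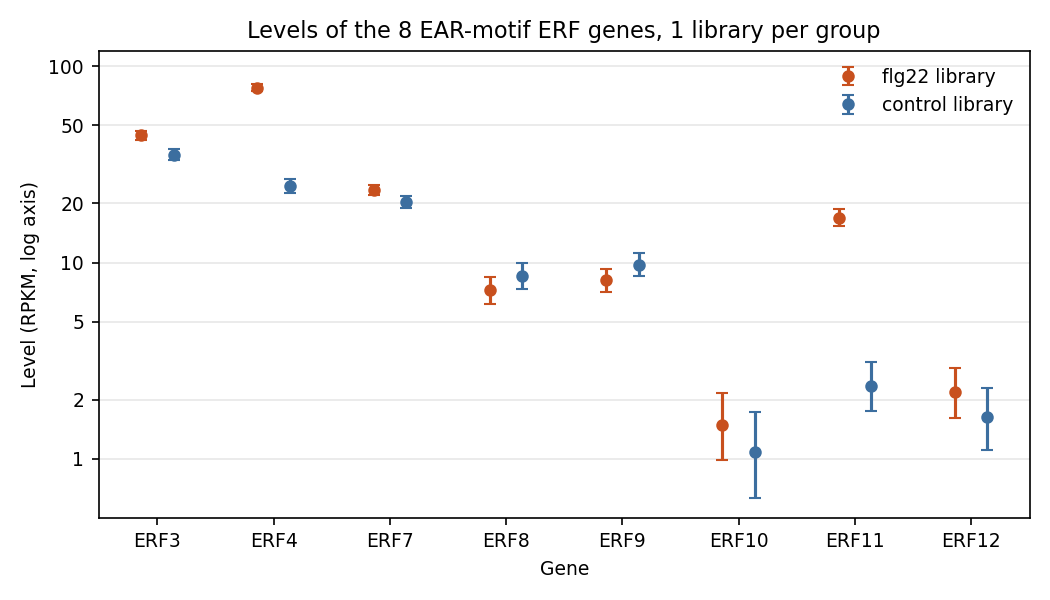
Level of each of the 8 repressor genes in RPKM, on a log axis, in the flg22 library (orange, left) and the control library (blue, right). Points are the deposited values and bars the exact 95% Poisson counting interval. ERF11 and ERF4 stand apart between the libraries, and the intervals of ERF8, ERF9, ERF10 and ERF12 overlap.

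**Figure D2:**
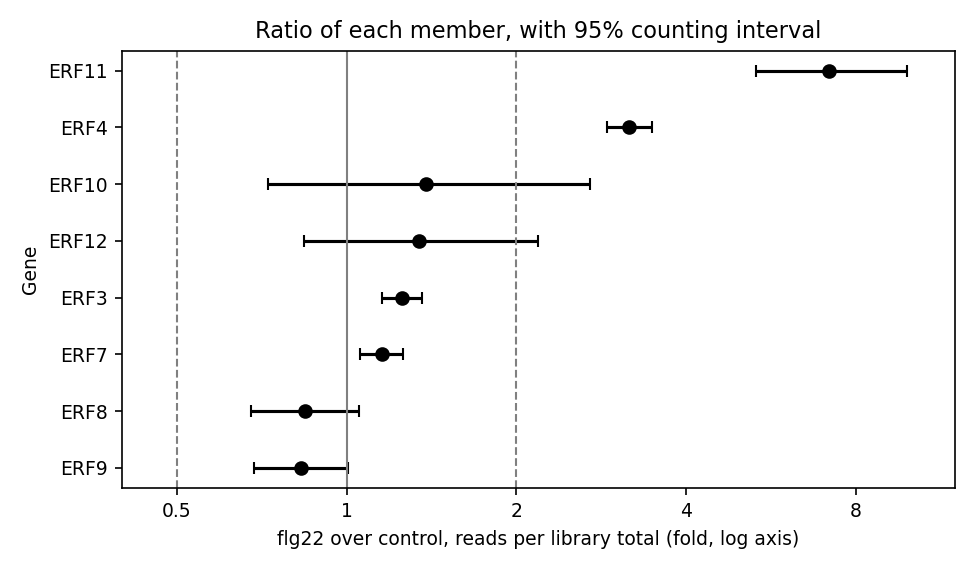
Ratio of reads per library total, flg22 over control, for each gene on a log axis, with exact 95% counting intervals. The solid line marks no difference and the dashed lines 2-fold. ERF11 at 7.19 and ERF4 at 3.18 have intervals wholly above 2-fold, and ERF10 and ERF12 have the widest intervals.

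The order of the 8 genes by level differed between the libraries. With flg22, ERF4 was first, followed by ERF3, ERF7, ERF11, ERF9, ERF8, ERF12 and ERF10. In the control, ERF3 was first, followed by ERF4, ERF7, ERF9, ERF8, ERF11, ERF12 and ERF10. ERF4 was 1.75 times ERF3 with flg22 (95% counting interval 1.64 to 1.87), and ERF3 was 1.45 times ERF4 in the control (1.31 to 1.60), each beyond counting error on the listed lengths. With the annotated spans as lengths, an alternative chosen after seeing the data, ERF4 was 2.36 times ERF3 with flg22 (2.21 to 2.53) and ERF3 was 1.07 times ERF4 in the control (0.966 to 1.19). The lead of ERF4 with flg22 was thus beyond counting error on both lengths, and that of ERF3 in the control on the listed lengths alone. The reads were not recounted over the spans. This alternative therefore pairs the authors' counts with other lengths and cannot decide which order is right. ERF11 moved past ERF8 and ERF9: with flg22 it was 2.09 times ERF9 (1.77 to 2.48), whereas in the control ERF8 was 3.64 times ERF11 (2.63 to 5.11). Neighbours in the order that did not differ beyond counting error were ERF9 and ERF8, and ERF12 and ERF10, in both libraries. In the control, ERF11 and ERF12 did not differ beyond it either, at a ratio of 1.45 (0.908 to 2.36). With the spans as lengths each library kept the order given above, but the ratio of ERF11 to ERF12 in the control was 1.76 (1.10 to 2.86) and that of ERF12 to ERF10 with flg22 was 1.69 (1.04 to 2.82).

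The 8 genes summed to 182 RPKM with flg22 and 104 RPKM in the control, a ratio of 1.75. ERF4 made up 42.8% of this sum with flg22 and 23.6% in the control. ERF11 made up 9.33% with flg22 and 2.27% in the control. Without ERF4 and ERF11, the other 6 genes summed to 86.9 RPKM with flg22 and 76.8 RPKM in the control, a ratio of 1.13. Most of the added RPKM of the branch was thus that of 1 gene, ERF4.

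**Figure D3:**
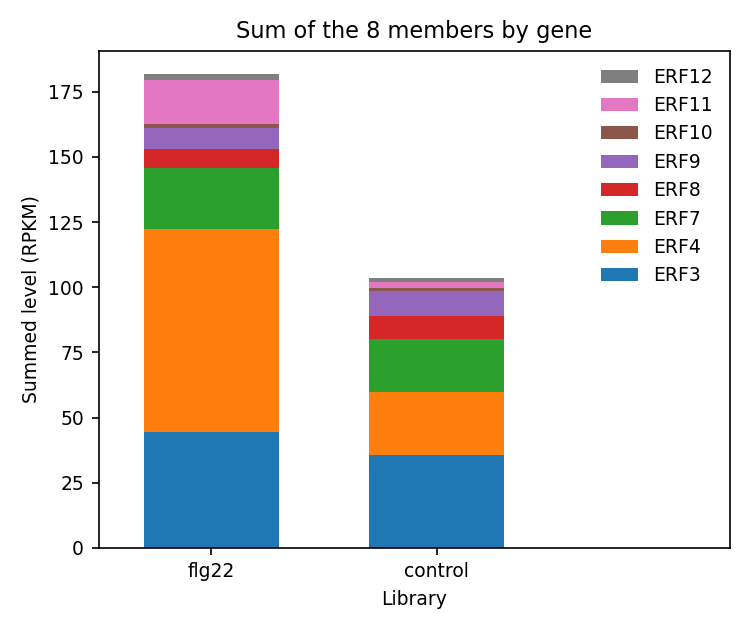
Summed RPKM of the 8 repressor genes in the flg22 library (left) and the control library (right), stacked by gene, with no error bars. The sums are 182 RPKM with flg22 and 104 RPKM in the control, and the ERF4 segment is the largest with flg22.

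In the authors' deposited table, which compares the same 2 libraries, ERF11 had a log2 fold change of 2.89 and a false discovery rate (FDR) of 0.554. The log2 fold change of ERF4 in the authors' deposited table was 1.71, with an FDR of 1. The authors' deposited table also listed an FDR of 1 for the other 6 members, so none of the 8 was called there at the usual limits. An FDR from 1 library per group cannot draw on the spread between replicates.

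Some close relatives and neighbours of ERF11 and ERF4 had ratios apart from theirs, and 1 neighbour of ERF4 did not. ERF8, the nearest relative of ERF4 among the members, had an interval of 0.676 to 1.05, apart from that of ERF4 at 2.90 to 3.48. ERF12, the genomic neighbour of ERF11, had an interval of 0.840 to 2.19, apart from that of ERF11 at 5.34 to 9.88. Beside ERF4 lie AT3G15200 and AT3G15220, outside the rule for named genes and named after their values were seen. AT3G15200 was at 3.67 RPKM with flg22 and 1.49 RPKM in the control, from 142 reads with flg22 and 50 in the control. Its fold of 2.47 (1.78 to 3.48) overlapped the interval of ERF4, while its log2 ratio after adding 1 RPKM was 0.91, inside the 2-fold limit. AT3G15220, on the other side, had a fold of 0.803 (0.722 to 0.893). Taking the nearest protein-coding gene of the table on each side of the 8 members gave 14 further genes, of which 9 passed the filter. On the log2 scale none of these 9 was at least 2-fold higher, against 11.3% of all genes past the filter. The 1 that was at least 2-fold lower, against 8.27% of all genes past the filter, was AT3G20300, next to ERF7. It was named after its value was seen and had a log2 ratio of -1.13.

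The promoters of ERF11 and ERF4 are shown because these are the 2 genes that were higher, and that of ERF8 because it is the relative of ERF4 that was not. Each sequence is the 250 bases before the most upstream annotated transcript start, read from RefSeq assembly TAIR10.1 along the strand of the gene. Capitals mark matches to the W-box core TTGAC, bound by WRKY factors, the GCC box GCCGCC, bound by ERF factors, the stress element CGCGTT, bound by CAMTA factors, and the G-box CACGTG, bound by bZIP and bHLH factors.
ERF11, chr1:9956981-9957230, minus strand: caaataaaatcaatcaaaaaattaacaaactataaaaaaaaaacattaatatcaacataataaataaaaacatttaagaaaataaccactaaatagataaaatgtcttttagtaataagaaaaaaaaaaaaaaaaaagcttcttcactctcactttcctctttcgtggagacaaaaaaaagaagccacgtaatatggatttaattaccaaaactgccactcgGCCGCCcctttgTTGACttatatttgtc
ERF4, chr3:5121172-5121421, plus strand: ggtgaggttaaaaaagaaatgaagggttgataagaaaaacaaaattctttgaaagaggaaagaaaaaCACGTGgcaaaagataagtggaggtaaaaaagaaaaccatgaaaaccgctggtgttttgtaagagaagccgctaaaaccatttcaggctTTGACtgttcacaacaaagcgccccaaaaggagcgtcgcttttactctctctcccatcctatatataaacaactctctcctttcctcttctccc
ERF8, chr1:19822253-19822502, minus strand: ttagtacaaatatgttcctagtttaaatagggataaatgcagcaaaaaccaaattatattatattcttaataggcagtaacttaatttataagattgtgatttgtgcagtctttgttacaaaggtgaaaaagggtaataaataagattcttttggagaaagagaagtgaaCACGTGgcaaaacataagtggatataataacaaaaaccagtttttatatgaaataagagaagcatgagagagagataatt

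Both strands were searched for these 4 motifs in a window of 250 bases before and 50 bases after the start, and no matches of different motifs overlapped in the members. ERF11 was the 1 member with a GCC box, which began at -28 from the start, with its W-box core at -16. A GCC box was found in 2.58% of the 27443 promoter windows searched. A W-box core was found in 7 of the 8 members, all except ERF7, and in 50.5% of all windows, so it was common at large. ERF4, ERF8 and ERF12 held a G-box, found in 7.68% of all windows, and ERF10 held the CGCGTT element, found in 3.42%. A match describes the letters alone, not a binding site.

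ERF4 and ERF8 also shared 2 longer identical runs in these windows, which hold their G-box and W-box core.
Run of 14 bases, starting at -185 in ERF4 and -82 in ERF8: aaCACGTGgcaaaa
Run of 18 bases, starting at -98 in ERF4 and 18 in ERF8: ggctTTGACtgttcacaa
Positions are counted from the annotated transcript start, so the longer run lies before the start in ERF4 and just after it in ERF8. The longest identical run in the other 27 pairs of members had a median of 9.0 bases and reached 17 bases, in A-rich sequence of ERF9 and ERF11. The genes that share these runs thus had folds of 3.18 for ERF4 and 0.844 for ERF8.

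**Figure D4:**
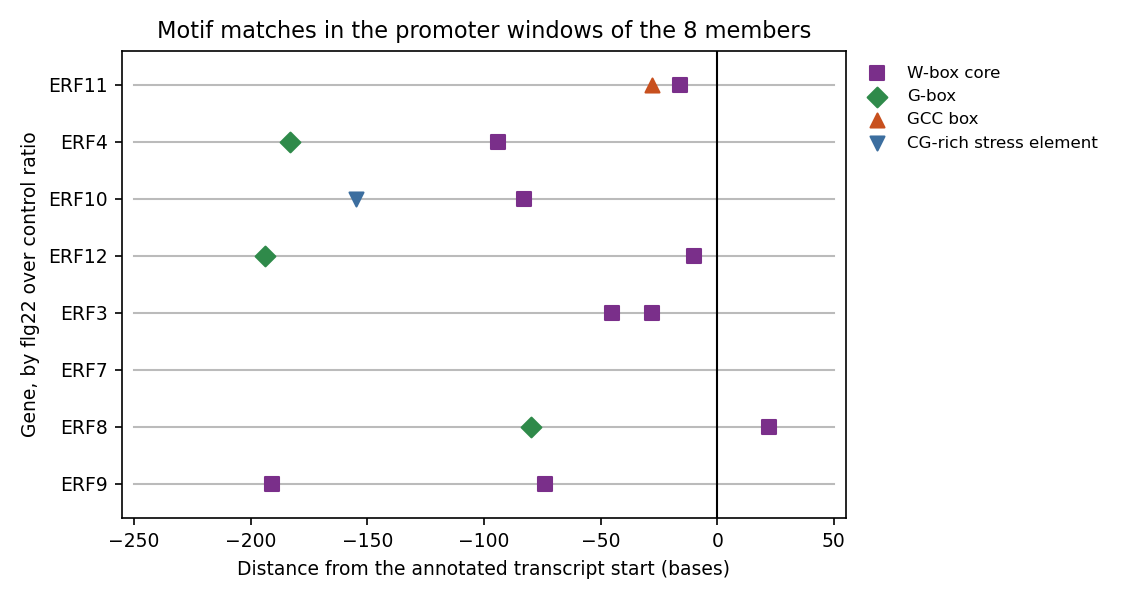
Matches of the 4 motifs by distance in bases from the annotated transcript start (vertical line), for the 8 genes ordered by their flg22 over control ratio with the highest at the top. Each marker is the first base of a match on either strand. The GCC box appears in ERF11 alone, W-box cores appear throughout except in ERF7, and the CG-rich stress element of the key is CGCGTT.

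Other ERF branches differed from the repressors in how many genes were higher. Of the 17 genes of group IX, which are mostly activators of defence genes, 14 passed the filter. Of these, 10 were at least 2-fold higher and 1 lower, beside 11.3% and 8.27% of all genes past the filter. The median log2 ratio of these 14 was 1.67, against 0.27 for the 8 repressors and -0.03 for all genes past the filter. ERF105 (AT5G51190), a stress- and cold-induced member, was at 112 RPKM with flg22 and 14.8 RPKM in the control. ERF13 (AT2G44840) had a log2 ratio of 2.70, and ERF98 (AT3G23230) had one of 2.69, from 71 reads with flg22 and only 2 in the control, a fold of 30.9 with a wide interval of 8.24 to 259.9. Group X, with wound- and pathogen-induced genes such as ABR1, had all 6 of its measured genes past 2-fold in the higher direction, and their median log2 ratio was 3.54. In that group RAP2.6 (AT1G43160) was at 42.1 RPKM with flg22 and 1.58 RPKM in the control, ERF114 (AT5G61890) had a log2 ratio of 4.91 and ABR1 (AT5G64750) one of 5.92. The ratio of ERF11, at 2.42, thus lay within the range of group IX, which ran from -1.31 to 2.83. The filter averages both libraries, so a gene below 1 RPKM in the control passed it only where its flg22 level was higher. In group X these were ABR1, ERF114 and, outside the naming rule, ERF109, at 0.471, 0.404 and 0.0337 RPKM in the control. In group IX they were ERF13, ERF98 and, outside the rule, ERF1B and ERF14, between 0.223 and 0.815 RPKM. The counts of higher genes in both groups were thus partly set by the filter. No test of these list differences was possible with 1 library per group.

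Group VII, whose proteins are oxygen-sensing activators, was divided. HRE1 (AT1G72360) and HRE2 (AT2G47520), induced in low oxygen, had log2 ratios of 2.06 and 3.44. RAP2.3 (AT3G16770) was lower at -1.24, while RAP2.12 (AT1G53910) and RAP2.2 (AT3G14230) were at -0.05 and 0.24. The other branch of group VIII, VIIIb, which holds regulators of organ patterning, was barely measurable. LEP (AT5G13910), a leaf development gene, was at 13.6 RPKM with flg22 and 10.4 RPKM in the control. ESR1, ESR2, PUCHI and ERF087 had at most 15 reads with flg22 and at most 19 in the control, and none reached the filter.

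The corepressors through which EAR motifs act were within 2-fold throughout. Of 12 genes for TOPLESS-type proteins, SAP18, histone deacetylases and SIN3-like proteins, 12 passed the filter and none was at least 2-fold higher or lower. Over all 18724 genes past the filter, only 19.5% were past 2-fold in either direction. Their median log2 ratio was -0.10. The largest differences were those of the TOPLESS-related genes TPR3 (AT5G27030), at 9.35 RPKM with flg22 and 5.70 RPKM in the control, and TPR4 (AT3G15880), at 8.40 RPKM with flg22 and 11.4 RPKM in the control. SAP18 (AT2G45640), which links the SIN3 complex to EAR proteins, had a log2 ratio of 0.26. HDA19, the deacetylase named with ERF7, was outside the naming rule and stood at 39.1 RPKM with flg22 and 45.4 RPKM in the control. ERF11 and ERF4 were thus higher while the listed partners of the motif lay between -0.40 and 0.63 on the log2 scale.

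**Figure D5:**
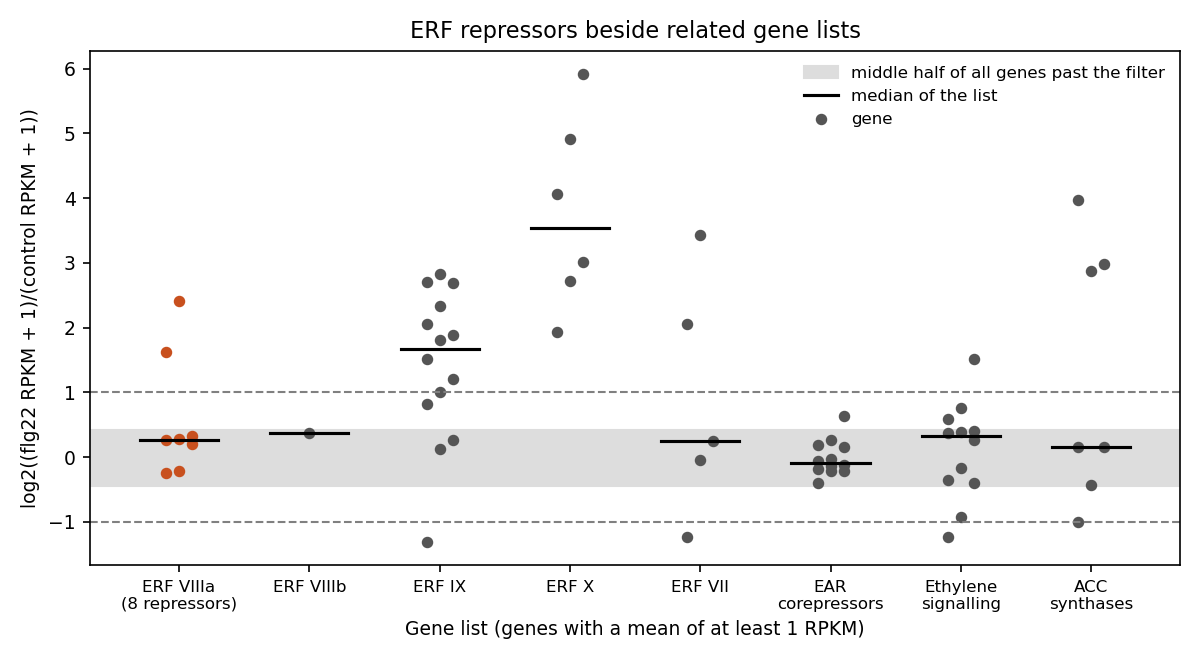
The log2 ratio of RPKM after adding 1, flg22 over control, for each gene past the filter in 8 gene lists. The bar is the median of the list, dashed lines mark 2-fold and the grey band spans the quartiles of all 18724 genes, -0.44 to 0.42. Of the 8 repressors (orange) ERF11 and ERF4 lie above the upper dashed line, and most genes of groups IX and X do.

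Ethylene perception and signalling genes, upstream of many ERF genes, were mostly within 2-fold, as were most genes past the filter. Of 12 genes, 1 was higher and 1 lower. Over all genes past the filter, 11.3% were higher and 8.27% lower. The median log2 ratio of the 12 was 0.32. The receptor gene ETR2 (AT3G23150) had 4160 reads with flg22 and 1218 in the control, a fold of 2.97 (2.79 to 3.17). EIN2 (AT5G03280), the central transducer of the pathway, was at 19.4 RPKM with flg22 and 47.2 RPKM in the control, and the transcription factor gene EIL1 (AT2G27050) had a log2 ratio of -0.93. Of 9 genes for ACC synthase, which makes the ethylene precursor, 7 passed the filter, 3 were higher and none was lower. The 3 were ACS7 (AT4G26200), ACS6 (AT4G11280) and ACS2 (AT1G01480), with log2 ratios of 3.97, 2.99 and 2.87. ACS7 and ACS2, at 0.819 and 0.803 RPKM in the control, passed the filter only through their higher flg22 level.

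Genes reported as targets of single repressors had ratios in both directions. ACS2 and ACS5 are reported targets of ERF11. ACS2 was at 12.2 RPKM with flg22 and 0.803 RPKM in the control, while ACS5 (AT5G65800) was at 0.531 RPKM with flg22 and 2.06 RPKM in the control. On reads, ACS5 was 3.88-fold lower (2.50 to 6.20), and its log2 ratio of -0.998 fell just inside the 2-fold limit. CAT3 (AT1G20620), a catalase gene reported as a target of ERF4, was at 279 RPKM with flg22 and 1543 RPKM in the control, 5.53-fold lower (5.46 to 5.61). PDF1.2A (AT5G44420), a defensin gene lowered by ERF4 and ERF9 in published work, had 24 reads with flg22 and 28 in the control, with a fold of 0.746 (0.414 to 1.33). DOG1 (AT5G45830), a seed dormancy gene tied to ERF12, had 7 reads with flg22 and 95 in the control, 15.6-fold lower (7.29 to 39.9). It was at 0.148 RPKM with flg22 and 2.31 RPKM in the control. Its log2 ratio was -1.53, and -0.51 with 5 RPKM added in place of 1. DOG1 and ACS5, below 1 RPKM with flg22, passed the filter only through their higher control level. ERF12 itself had no detectable difference, and whether any of these ratios follows from a repressor was not tested.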

How the data were processed

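The authors deposited read counts and RPKM per gene for 1 flg22 and 1 control library, per the file headers, each a pool of 3 biological replicates per the labels. Bowtie, TopHat, DESeq and TAIR10 are named without roles, per the submitters' processing notes; the counting program and library strand were not given in the sources used here. Deposited RPKM equalled reads over listed length and library total to within 7.24e-06%. A log2 fold change, p-value and FDR per gene come from the authors' table, per the file headers. Steps were run with Python 3.11.15 and scipy 1.17.1, with scaling factors from edgeR 4.0.16 and DESeq2 1.42.0, and were tested on simulated data. Log2 ratios add 1 RPKM, and the filter kept the 18724 of 27416 genes that averaged 1 RPKM or more. Intervals are exact at 95%, and reads carry no molecular identifiers. All members are named, with the 3 largest log2 ratios of each other list and every gene of lists of 5 or fewer; genes beyond it are pointed out. Members and lists were chosen with earlier results of these data known. Loci, coding sequences and promoters are those of RefSeq for TAIR10.1, matched by locus identifier for 26710 of the 27416 genes. Its transcript spans differ from the listed lengths by more than 1 base for 6 of the 8 members. Of the 26710 genes, 29.7% had a listed length 1 base less than an annotated span.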

Additional observations from a re-analysis of the deposited data

How the results depend on the processing

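No paired analysis was possible because each group holds 1 library. Across pseudocounts of 0.1 and 5 RPKM and the TMM, DESeq2 and upper quartile scalings, the 8 members kept the sign of their log2 ratios. ERF11 ranged from 1.58 to 2.79 and ERF4 from 1.49 to 1.67, the low values coming with 5 RPKM added and the high value of ERF11 with 0.1 RPKM. ERF11 and ERF4 were the 2 members at least 2-fold higher, and none was lower, under all of these and with the filter removed or set at 5 RPKM. At a 1.5-fold limit the count of members was again 2, and at a 4-fold limit it was 1, with 1 related gene lower in place of 5. Over all genes, 2111 higher and 1548 lower became 1392 and 830 with 5 RPKM added, 3637 and 3494 at a 1.5-fold limit, and 781 and 279 at a 4-fold limit. The scalings shifted log2 ratios by -0.05 to 0.04. A pseudocount cannot change a sign, and these shifts are smaller than the ratio of any member or the 2-fold limit. The kept signs of members and called genes were therefore not a test. The kept count of members was not a test under the scalings and filters either. No member lay near enough to the 2-fold limit for these shifts to move it across. All members passed the main filter, so removing it could change none, and the filter at 5 RPKM dropped only ERF10 and ERF12, which were within 2-fold. Of the 205 alternative values of members and other named genes, 44 lay outside the counting interval of the main value. Of these 44, 3 were member values. Depth limits ERF10 and ERF12, whose intervals span 2-fold.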
